A study of Homo sapiens with 18 samples.

Results

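The MHC regions are the 572 rows of the deposited MeDIP table, of 198884 in all, that lie on chromosome 6 between bases 28477797 and 33448354 of the human build hg19. Among the rows of this table, membership was set by position alone. The rows themselves come from peaks in these libraries, and the members were chosen with earlier results of these data known. The major histocompatibility complex (MHC) was divided at gene landmarks into extended class I (118 regions, up to MOG), class I (216 regions, MOG to MICB), class III (150 regions), class II (26 regions, BTNL2 to HLA-DPB2) and extended class II (62 regions). A further 10912 regions lay on the rest of chromosome 6. MeDIP-seq sequences the DNA fragments that an antibody against 5-methylcytosine captures, and each row is an interval in which at least 1 library had a peak of such fragments. The cells were K562, an established human erythroleukaemia line, and in all groups they carried a transgene that joins the B2M gene to the red fluorescent protein tdTomato. The 3 groups were untreated cells, cells silenced with TALE-based repressors and cells silenced with dCas9-based repressors, with 3 MeDIP and 3 RNA libraries each. Treated cells had received 3 plasmids for different repressors, 1 of them named in the labels as D3A-based, and the dCas9 cells also a plasmid for the guide RNA. The repressors were directed at the B2M promoter, which is on another chromosome. The labels give no time of collection, do not say whether silenced cells were sorted, and do not say whether replicates were separate cultures, so the tests below measure the spread between libraries, which may be technical.

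The MHC holds the genes for the molecules that show peptides to T cells. Class I heavy chains such as HLA-B and HLA-C pair with beta-2 microglobulin, the product of B2M, and appear on most nucleated cells. Class II chains (HLA-DR, HLA-DQ, HLA-DP) appear mainly on antigen-presenting cells and depend on the transactivator CIITA. The class II part also holds TAP1 and TAP2, the peptide transporter, and PSMB8 and PSMB9, subunits of the immunoproteasome. Class III holds complement, TNF family and heat shock genes, and the extended parts hold olfactory receptor, zinc finger and chromatin genes. Cytosine methylation in mammals falls mainly on CpG dinucleotides, is usual in gene bodies and repeats such as Alu, and is usually low at CpG-rich starts of active genes.

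The sequences of 3 regions, 854 bases in all, are given on the plus strand of GRCh37 (the sequence of hg19) and 5′ to 3′, with each CpG in capitals. For regions over 300 bases the 300 bases with the most CpG are given. R500 (chr6:32820393-32820692) is a strong region of class II, in PSMB9 and TAP1, the genes of an immunoproteasome subunit and of the peptide transporter. R45 (chr6:28697725-28698024), between genes in extended class I, had the smallest p between TALE and dCas9 libraries, which did not pass the test after adjustment. R443 (chr6:31994217-31994470) lies in C4B and has an exact second copy in C4A.
R500: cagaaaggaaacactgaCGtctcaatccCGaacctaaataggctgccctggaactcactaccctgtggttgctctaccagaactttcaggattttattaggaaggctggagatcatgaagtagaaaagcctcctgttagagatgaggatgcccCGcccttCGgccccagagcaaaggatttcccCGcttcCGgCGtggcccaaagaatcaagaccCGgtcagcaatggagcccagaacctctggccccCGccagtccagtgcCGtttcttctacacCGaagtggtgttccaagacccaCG
R45: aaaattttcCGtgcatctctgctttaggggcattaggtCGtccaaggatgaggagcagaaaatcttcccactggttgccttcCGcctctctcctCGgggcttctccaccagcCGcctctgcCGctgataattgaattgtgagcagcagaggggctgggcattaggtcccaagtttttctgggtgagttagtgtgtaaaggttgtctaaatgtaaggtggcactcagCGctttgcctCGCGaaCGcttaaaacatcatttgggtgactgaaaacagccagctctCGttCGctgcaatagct
R443: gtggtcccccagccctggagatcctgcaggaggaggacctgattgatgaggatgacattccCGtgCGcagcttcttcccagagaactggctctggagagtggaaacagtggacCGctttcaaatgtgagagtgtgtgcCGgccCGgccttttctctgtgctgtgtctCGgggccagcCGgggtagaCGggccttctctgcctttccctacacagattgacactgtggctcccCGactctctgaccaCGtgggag
These stretches held 12, 12 and 10 CpG in 300, 300 and 254 bases. The 16-base word TACTAAAAATACAAAA or its reverse complement TTTTGTATTTTTAGTA was the commonest such word over the MHC regions, and none of these 3 stretches holds it. This word belongs to Alu, the most numerous short interspersed repeat of the human genome.

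The MeDIP counts summed to between 2529729 and 4492751 per library, and the RNA counts to between 8460076 and 12050554. The targeted gene matched its labels: B2M had 79, 48 and 54 RNA counts in the untreated libraries, 3, 7 and 4 in the TALE libraries and 2, 3 and 3 in the dCas9 libraries. The region at the B2M promoter had 0 MeDIP counts in each untreated library, 7, 10 and 9 in the TALE libraries and 14, 13 and 16 in the dCas9 libraries. The K562 markers GATA1 and HBG2 had 105 and 3941 untreated CPM (counts scaled to library size), and the B and T cell markers CD79A and CD3E had 0.0703 and 0.413. Coding genes and positions are those of GENCODE 44 on GRCh37. No region and no peak was listed on the alternative chromosome 6 haplotype contigs.

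Methylated regions were dense along most of the MHC and sparse in class II. The window held 115 regions per megabase, against 67.2 on the rest of chromosome 6 and 69.4 on all assembled chromosomes. Extended class II (176 per megabase) and class III (170) were the densest, class I (117) and extended class I (103) followed, and class II had 35.3. CpG content varies along the locus, so the regions were also counted per CpG. Class II held 3.43 regions per 1000 CpG, while the other 4 parts held 8.48 to 9.54 and the rest of chromosome 6 held 7.76. The share of CpG that lay inside a region was 4.33% in class II, 10.9% in class I, 13.7% in extended class II, 15.1% in class III, 18.4% in extended class I and 8.36% on the rest of chromosome 6. Thus class II was below the chromosome by either measure and the other 4 parts were above it. These are counts from 1 table over all libraries and carry no test.

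**Figure D1:**
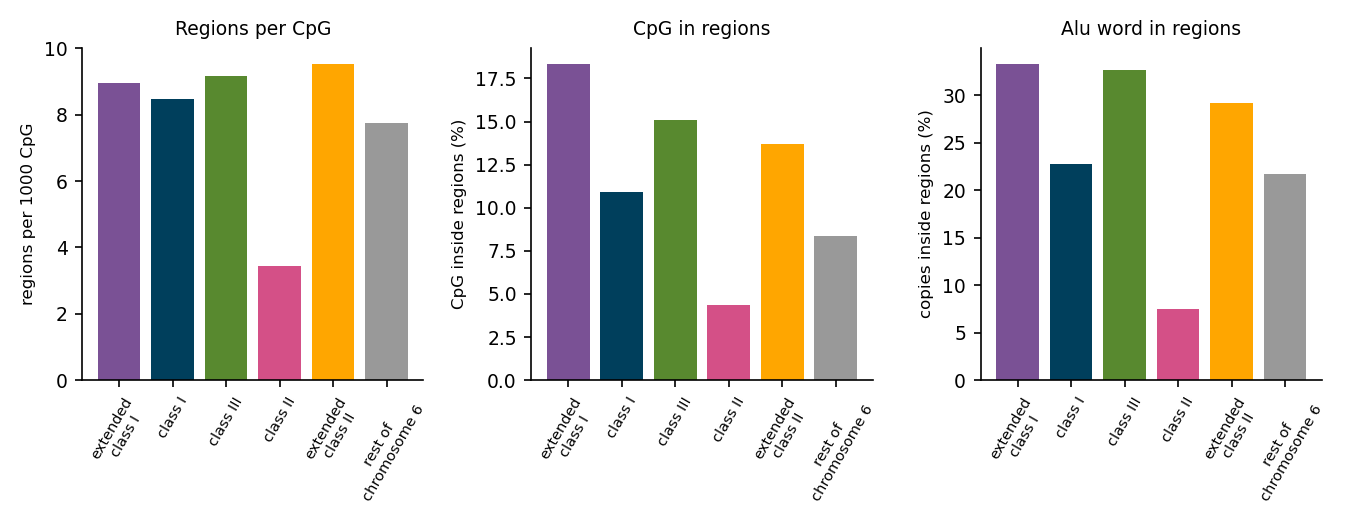
Bars give, for the 5 parts of the MHC and the rest of chromosome 6, the number of regions per 1000 CpG (left), the percent of CpG inside regions (middle) and the percent of copies of the 16-base Alu word inside regions (right). Class II has the lowest bar in each panel, at 3.43 regions per 1000 CpG, 4.33% of CpG and 7.50% of word copies.

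Inside the parts the regions came in blocks. In steps of 500 kb from the start of the window, the first step, which holds TRIM27, had 98 regions with a median untreated level of 8.25 CPM and 5 coding genes. The second, which holds olfactory receptor genes, had 6 regions with a median of 2.94 CPM. In this step 0 of 14 coding genes reached 1 RPKM (the CPM of RNA divided by merged exon length in kilobases) in untreated cells. The third step, with HLA-F and HLA-G, had 38 regions and a median of 2.06 CPM, and 1 of its 9 coding genes reached 1 RPKM. The fifth, just past HLA-E, had 100 regions at a median of 7.61 CPM, and 16 of its 20 coding genes reached 1 RPKM. The seventh, in class III, had 103 regions at a median of 9.83 CPM, the highest of the 10 steps, and 51 of them were above 10 CPM. The ninth, with HLA-DRB1, HLA-DRB5, the HLA-DQ genes, HLA-DOB and TAP2, had 23 regions at a median of 2.39 CPM. The stretch with the HLA-DQ genes held no region, so this median is not a level at those genes.

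**Figure D2:**
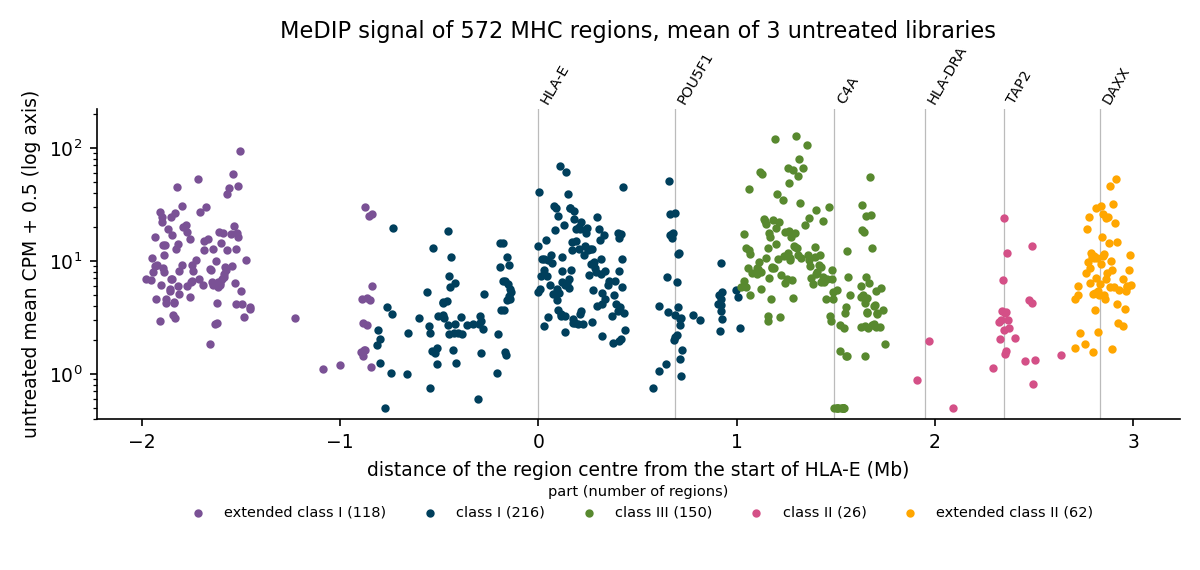
Each point is 1 of the 572 regions, placed by its distance in Mb from the start of HLA-E (x axis) and its mean CPM over 3 untreated libraries plus 0.5 on a log axis (y axis), with colours for the 5 parts and grey lines at the starts of 6 genes. The points form blocks, with few regions around HLA-DRA and between the extended class I blocks, and a row of C4 regions at 0 CPM.

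The longest stretch of the window without a region measured 226186 bases and held the olfactory receptor genes OR2B3, OR2J1, OR2J2, OR2J3 and OR2W1. The longest in class II, of 201129 bases, held HLA-DQA1, HLA-DQA2, HLA-DQB1 and HLA-DQB2, which code for DQ chains. A stretch of 140620 bases in class I held the mucin genes MUC21 and MUC22. The longest in class III held TSBP1 and measured 156995 bases up to the limit with class II, where it was cut. A stretch without a region had no peak in any of the 9 libraries, and methylation below what a peak needs is not seen there. Whether reads could be placed in these stretches, and their DNA copy number, was not tested.

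The regions were of usual width for the table, and their levels were higher than in the whole table. The median width was 297 bases (287 over all regions) with 3.12 CpG per 100 bases (2.81). The median untreated level was 5.98 CPM against 3.44 over all regions, and per kilobase of region it was 21.3 against 13.7 CPM. By part it was 7.58 CPM in extended class I, 7.35 in class III, 6.53 in extended class II, 4.59 in class I and 2.003 in class II. Class II was also low per kilobase, at 5.60 CPM, although its CpG density, 2.82 per 100 bases, was near that of all regions. Peaks recurred across libraries: 217 regions (37.9%) had a peak in all 9 libraries, against 24.5% of all regions, and 59 (10.3%) in 1 library, against 15.97%. In class II 4 of 26 regions had a peak in all 9 and 9 had one in a single library. A count filter kept 410 of the 572 regions for testing, 71.7% against 53.1% of all regions, and 8 of the 26 in class II.

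The number of MHC regions with a peak went from 353 in TALE replicate 1, the library with the fewest counts, to 453 in dCas9 replicate 2, the one with the most. In class II the 2 deepest libraries, dCas9 replicate 2 and TALE replicate 3, had 17 and 18 regions with a peak and the other 7 had 8 to 13. Peak presence thus moved with depth, and it is not compared between groups.

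By annotation, 127 regions overlapped coding exons, 9 only UTRs of coding genes, 57 other exons, 191 introns and 188 no gene. Other exons belong to genes that are not coding genes, or to transcripts of coding genes that are not classed as protein-coding. Extended class I differed in make-up, with 76 of 118 regions between genes, while in class III 51 of 150 lay on coding exons. A region was called island-like where it was at least 200 bases wide with at least 50% G and C and a CpG observed-to-expected ratio of at least 0.6. Of the MHC regions 75 (13.1%) were island-like, against 10.6% of all regions. The share was 34.6% in class II (9 of 26) and 23.7% in extended class I (28 of 118), and 6.67% in class III (10 of 150).

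The Alu word was found, on either strand, in 191 of the 572 regions (33.4%), against 31.6% of regions on the rest of chromosome 6 and 31.4% of all regions with a reference sequence. Regions with the word were wider (median 384 against 287 bases) and had a higher untreated median (12.1 against 4.73 CPM) than regions without it. The word is common in the MHC itself, at 191 copies per megabase against 107 on the rest of chromosome 6. Of its 948 copies in the window 253 (26.7%) lay inside regions, against 21.7% on the rest of chromosome 6. In class II 6 of 80 copies (7.50%) did, against 22.7% in class I, 29.1% in extended class II, 32.7% in class III and 33.3% in extended class I. The low share of class II in regions was thus seen also for copies of 1 repeat sequence. The number of cells methylated and the number of methylated sites per cell cannot be told apart in these bulk libraries.

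How often gene starts of the MHC held a region, set beside the whole genome, depended on the window around the start. A start is the outermost annotated 5′ end of a gene, and a region was assigned to it if it overlapped the 1000 bases before to 500 bases after. Of 184 coding genes of the window 26 (14.1%) had a region there, against 17.7% of 20175 coding genes on all assembled chromosomes. Class I had 12 of 50, class III 9 of 69, class II 4 of 21, extended class I 1 of 23 and extended class II 0 of 21. The body of 119 genes (64.7%) overlapped a region, against 74.0% of all coding genes. With 2000 bases on both sides of the start, a window chosen after values were seen, the order turned round, with 94 of 184 MHC genes (51.1%) against 43.7% of all coding genes. By part the wide window gave 31 of 50 in class I, 40 of 69 in class III, 5 of 21 in class II, 2 of 23 in extended class I and 16 of 21 in extended class II. The bodies of 16 of the 21 extended class II genes also held a region.

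The gene lists of the MHC held 97 annotated genes, of which 15 had a region at the start and 45 in the body. HLA-E was among them for the class I heavy chains. Among 11 annotated class I pseudogenes HLA-K, HLA-W, HLA-J and HLA-N did. In the group that supplies peptides TAP2, PSMB8 and PSMB9 did, of the chromatin and transcription group ZFP57 and POU5F1, of the TRIM family TRIM10, TRIM15 and TRIM26, and of the mixed list CYP21A2. No region lay at the start of any of 9 class II chains, 4 class II loading genes (HLA-DM and HLA-DO), 24 olfactory receptors, 4 complement genes, 6 genes of the TNF group, 3 heat shock genes or 2 class I-like genes. With the wide window 37 listed genes had one, and the class II chains and loading genes still had none. In the body, 1 of the 9 class II chains (HLA-DRB1), 1 of the 24 olfactory receptors and all 4 complement genes held a region.

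The region upstream of HLA-E, the nonclassical class I chain that inhibits natural killer cells, had 11.4, 12.3 and 15.3 CPM in the untreated libraries, 7.85, 16.1 and 12.6 in the TALE libraries and 10.7, 15.6 and 16.8 in the dCas9 libraries. The 3 groups overlapped, and all 9 libraries had a peak there. HLA-E RNA stood at 6.99 RPKM in untreated cells, the highest of the 6 heavy chains. Reads from HLA genes can match several copies, so the RNA values of single HLA genes are uncertain.

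Of the class I pseudogenes, HLA-W had the highest region, R136 (chr6:29924094-29924658), with 12.9, 13.2 and 11.2 CPM in the untreated libraries, 14.3, 13.0 and 7.69 in the TALE libraries and 18.6, 13.0 and 13.8 in the dCas9 libraries. Its groups overlapped. The regions at HLA-K, HLA-N and HLA-J averaged 4.77 ± 2.28, 4.82 ± 1.51 and 2.84 ± 2.12 untreated CPM (SD, n = 3). The HLA-K region, R131, was the third most CpG-dense of the locus, with 8.68 CpG per 100 bases over 1083 bases, and had a peak in all 9 libraries. HLA-K and HLA-W RNA had 0 counts in each untreated library, and the 4 counts of HLA-J and the 1 count of HLA-N in untreated cells all came from replicate 3, with 0 in the other 2 libraries.

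POU5F1 codes for OCT4, a transcription factor of pluripotent cells. The region over its outermost start, R309 (chr6:31147392-31149294), had 24.9, 24.2 and 29.0 CPM in the untreated libraries, 32.8, 20.4 and 31.6 in the TALE libraries and 30.8, 21.6 and 34.1 in the dCas9 libraries. The groups overlapped and POU5F1 RNA had 0 counts in all untreated libraries. ZFP57, a zinc finger protein that protects imprints, had a region of 70 bases at 1.97 ± 0.967 CPM (SD, n = 3) and RNA at 0.173 RPKM. TRIM26 had one of 1083 bases at 4.59 ± 1.65 CPM with RNA at 0.559 RPKM. TRIM10 and TRIM15 shared one at 2.26 ± 0.798 CPM with RNA at 0.163 and 0.250 RPKM. The CYP21A2 region, at 2.95 ± 1.103 CPM, had a peak in 1 library, and CYP21A2, a steroid hydroxylase gene, was at 0.0143 RPKM.

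In class II the strongest region was R495 (chr6:32806880-32807505), which lies upstream of TAP2 and holds 29 CpG in 626 bases. It had 22.4, 26.3 and 21.5 CPM in the untreated libraries, 29.1, 20.8 and 20.1 in the TALE libraries and 24.5, 26.8 and 21.2 in the dCas9 libraries. The groups overlapped, and TAP2 RNA stood at 3.94 RPKM in untreated cells. The region R497 at the facing starts of PSMB8 and PSMB9 was near the floor, with 3, 2 and 4 counts in the untreated libraries, a peak in 1 of 9 libraries, and RNA of 1.22 and 2.28 RPKM. The next strongest regions of class II were R507 in BRD2, a bromodomain reader of acetylated histones, at 13.0 ± 3.56 CPM, and R500 in PSMB9 and TAP1 at 11.3 ± 2.17 (SD, n = 3). All 8 tested class II regions lay in the stretch from TAP2 to BRD2. The class II chains had a median untreated RNA level of 0.0295 RPKM and a highest level of 0.186, and the 4 loading genes had a median of 0.0947. CIITA had 0, 0 and 13 counts in the untreated libraries.

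Over coding genes with an RNA value, the 25 with a region at the start had a median of 0.467 RPKM and 11 of them (44%) reached 1 RPKM. The 150 without one had a median of 0.944 RPKM, and 75 (50%) reached that level. The 92 with a region in the body and none at the start had a median of 3.54 RPKM and 64 (69.6%) reached it. With the wide window the order of the first 2 groups turned round: the median was 2.57 RPKM for 87 genes with a region at the start, of which 56 (64.4%) reached 1 RPKM, and 0.0855 RPKM for 88 genes without one, of which 30 (34.1%) did. In the narrow window, genes with a region at the start ranged from POU5F1 at 0 to MDC1, a DNA damage mediator, at 39.2 RPKM, so both silent and transcribed genes were among them.

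The highest signals of the locus were in class III. R395 in an intron of VARS1, which codes for valyl-tRNA synthetase, averaged 127 ± 1.33 CPM (SD, n = 3) over 3893 bases. R369 (chr6:31649504-31651556) at the start of LY6G5C averaged 119 ± 3.57 over 2053 bases, and R404, between genes near HSPA1B, 106 ± 9.69. VARS1 RNA was at 41.1 RPKM and LY6G5C RNA at 0.163, so the highest regions lay in a transcribed and in a nearly silent gene. In extended class I the highest was R95 in HCG15 at 92.5 ± 7.73 CPM. In class I they were R213 in ABCF1 (68.0 ± 3.54), R223 in ATAT1 (59.97 ± 5.07) and R300 in CCHCR1 (50.5 ± 2.85), the widest region at 5471 bases. In extended class II it was R559 in KIFC1, a kinesin gene, at 52.1 ± 5.72 CPM. R395 had 124, 133 and 119 CPM in the TALE libraries and 146, 120 and 135 in the dCas9 libraries, so the groups overlapped.

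In 11 regions the deposited counts were 0 in all 9 libraries although 2 to 9 libraries listed a peak at the same place. Of these 10 lay in C4A or C4B, the near-identical genes of complement component C4, and R487 (chr6:32547603-32547866) lay in an intron of HLA-DRB1. Each of the 10 C4 regions had an exact copy of its whole sequence in the other C4 gene. The region R443 shown above, with peaks in 5 libraries, has its copy at chr6:31961479-31961732. Of 12 regions whose 50-base words all occurred again in the window 10 had 0 counts, and of 258 regions with no such word 0 did. Those 258 had a median of 108 counts over the 9 libraries. R444 in C4B and R448 in TNXB, also with all words repeated, had 42 and 29 counts. The HLA-DRB1 region had 88.4% repeated words. Of all regions 3224 (1.62%) were at 0, against 1.92% of the MHC regions. As peaks were listed there, the deposited counts are not taken as levels of these 11 regions. The cause of the 0 counts was not tested. A count of 0 over 9 libraries allows up to 3 counts or 0.116 CPM, for counting error only, and how the authors treated reads with several matches is not given in the sources used here.

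**Figure D3:**
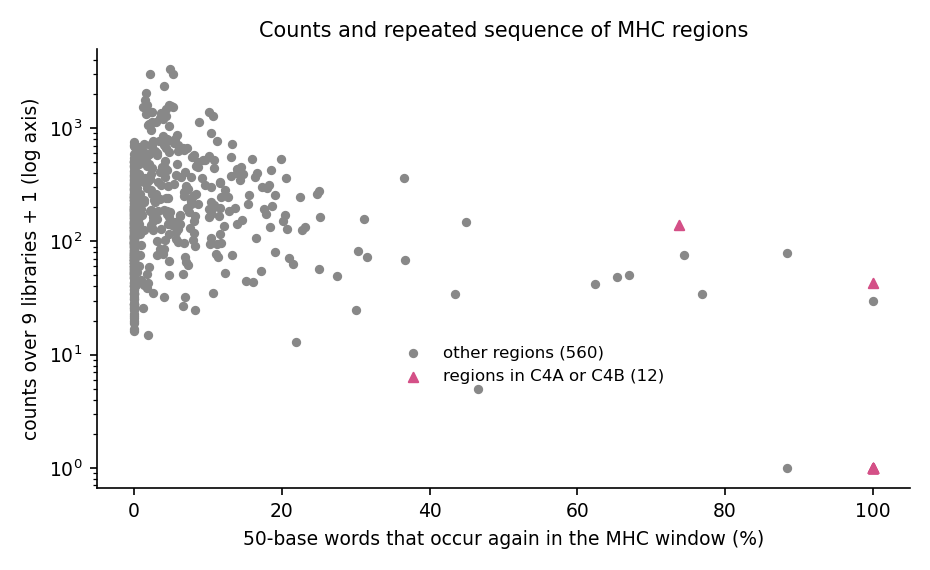
Each point is 1 MHC region, with the percent of its 50-base words that occur again in the window (x axis) and its counts over 9 libraries plus 1 on a log axis (y axis). Triangles mark the 12 regions in C4A or C4B, of which 10 lie at 0 counts and 100% repeated words.

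The share of all MeDIP counts that fell in the MHC regions lay in a narrow range in all 3 groups. The share was 0.525, 0.525 and 0.520% in the untreated libraries, 0.528, 0.526 and 0.534% in the TALE libraries and 0.525, 0.525 and 0.530% in the dCas9 libraries. The means were 0.523 ± 0.00289, 0.529 ± 0.00399 and 0.526 ± 0.00279% (SD, n = 3), and the dCas9 and untreated libraries overlapped. The 3 TALE libraries were above the untreated range of 0.520 to 0.525%. They overlapped the untreated libraries over regions that pass the count filter (0.583 to 0.595% against 0.581 to 0.585%), over assembled chromosomes only, and over members with a peak in at least 5 libraries. By part, the means in untreated, TALE and dCas9 libraries were 0.151, 0.155 and 0.151% in class I, 0.186, 0.184 and 0.186% in class III, and 0.00793, 0.00830 and 0.00836% in class II. They were 0.122, 0.126 and 0.126% in extended class I and 0.0557, 0.0548 and 0.0548% in extended class II. In extended class I the dCas9 libraries (0.1252 to 0.1278%) lay above the untreated ones (0.1196 to 0.1238%), and the TALE libraries overlapped both. In the other 4 parts the groups overlapped. The MHC regions are 0.288% of all regions and 0.372% of their bases.

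**Figure D4:**
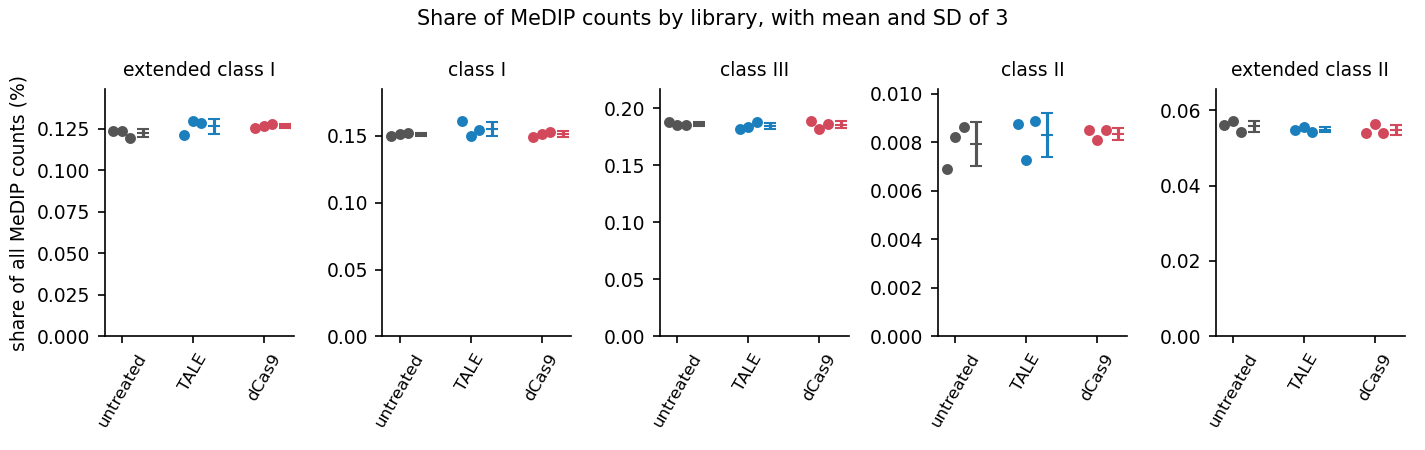
Points give the percent of all MeDIP counts of a library that fall in the regions of each MHC part, for 3 untreated, 3 TALE and 3 dCas9 libraries, and the bars beside them the mean and SD of 3. Class III holds the largest share, 0.184 to 0.186% on average, and class II the smallest, 0.00793 to 0.00836%.

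Single regions were then compared between groups, to ask whether repressors aimed at B2M changed methylation at the MHC. With TALE against untreated, edgeR's quasi-likelihood test with Benjamini-Hochberg adjustment over all 105652 tested regions called 0 of 410 MHC regions, where it called 0.0% of all regions. At an unadjusted p under 0.05 there were 23 (17 higher, 6 lower), 5.61% against 4.74% of all regions. CPM did not overlap between groups in 41 (10.0%), against 10.2% of all regions. TALE was the higher group in 25 of them, where 5.15% of all regions lay, and the lower in 16 (5.01% of all regions). The median log2 fold change was 0.004, against -0.0009 over all regions. With dCas9 against untreated, 0 of 410 were called, against 0.000947% of all regions. Here 22 (13 higher, 9 lower) had an unadjusted p under 0.05, 5.37% against 4.69%, and 51 (12.4%) did not overlap, against 10.3%. In 27 of these dCas9 was higher (5.21% of all regions) and in 24 lower (5.12%). With TALE against dCas9, 0 were called, against 0.000947%, 16 had an unadjusted p under 0.05, 3.90% against 4.47%, and 36 (8.78%) did not overlap, against 9.97%, with TALE higher in 21 (4.91% of all regions) and lower in 15 (5.06%). With all 6 silenced libraries against untreated, 0 were called, against 0.0%, 17 had an unadjusted p under 0.05, 4.15% against 4.88%, and 11 (2.68%) did not overlap, against 2.45%, with silenced higher in 7 (1.27% of all regions) and lower in 4 (1.18%). DESeq2 called 0 in all 4 comparisons, where it called 0.0% of all regions in each. At an unadjusted p under 0.05 by DESeq2 there were, in the same order, 7 (1.71% against 2.52% of all regions), 9 (2.20% against 2.48%), 8 (1.95% against 2.37%) and 10 (2.44% against 2.58%). The comparisons with untreated libraries share those 3 libraries. With both directions together, the shares of MHC regions were near those of the whole table, with 12.4% against 10.3% for the dCas9 non-overlap. Shares of all regions by direction were not computed for the unadjusted p. The 17 higher and 6 lower for TALE and the 13 higher and 9 lower for dCas9 thus have no such share beside them.

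By part, the unadjusted p was under 0.05 in 6 of 100 tested regions of extended class I, 4 of 133 of class I, 7 of 116 of class III, 0 of 8 of class II and 6 of 53 of extended class II when TALE libraries were set against untreated ones. With dCas9 libraries the numbers were 8, 4, 5, 1 and 4 of the same totals. As shares, in the same order of parts, these were 6, 3.01, 6.03, 0 and 11.3% for TALE, against 4.74% of all regions. For dCas9 they were 8, 3.01, 4.31, 12.5 and 7.55%, against 4.69% of all regions. The 10th and 90th percentiles of the log2 fold changes over the MHC regions were -0.40 and 0.45 for TALE and -0.44 and 0.47 for dCas9, and the median standard error was 0.32 in both.

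The region with the smallest p against untreated, for dCas9 and for all silenced libraries, was R8 (chr6:28532920-28533320), which lies between genes in extended class I with GPX6 as the nearest coding gene. It had 5.84, 7.64 and 12.8 CPM in the untreated libraries, 6.93, 5.89 and 4.39 in the TALE libraries and 2.37, 3.64 and 3.45 in the dCas9 libraries. All dCas9 libraries were below all untreated ones, and the TALE libraries overlapped them. A peak at R8 was listed only in untreated replicates 2 and 3. R8 was thus in the table through untreated libraries, so its lower level in dCas9 is not independent of how regions were listed. The log2 fold change for dCas9 was -1.45 ± 0.398 (SE), with an adjusted p of 0.908 by edgeR and an exact two-sided permutation p of 0.1, the smallest that 3 against 3 libraries can give. For TALE against untreated the smallest p was that of R538 (chr6:33292461-33293172), in an intron of SMIM40 near DAXX, a histone chaperone gene. It had 23.7, 42.0 and 25.2 CPM in the untreated libraries, 14.3, 20.4 and 21.2 in the TALE libraries and 19.4, 24.4 and 22.0 in the dCas9 libraries. The TALE libraries lay below the untreated ones and the dCas9 libraries overlapped them, with a log2 fold change for TALE of -0.65 ± 0.208 (SE) and an adjusted p of 1.00 by edgeR.

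The other regions with the 3 smallest p in each comparison did not pass the test either. Against untreated they were R76 (log2 fold change 1.01 in TALE) and R24 (0.47 in TALE) in extended class I, R563 in PHF1, a Polycomb-linked gene (1.10 in dCas9), and R337 at the start of MCCD1 (-0.83 in dCas9). R76 had 3.69, 9.34 and 6.23 untreated CPM and 11.1, 15.7 and 10.99 TALE CPM, with no overlap. Between TALE and dCas9 they were R45 (1.39), R548 (-0.89) and R235 in an intron of DHX16 (0.55). A peak at R45 was listed only in untreated replicate 3 and TALE replicate 1. R45 was thus in the table through groups other than dCas9, and its lower dCas9 level is not independent of that. None of the 8 tested regions at starts of listed genes passed the test between silenced and untreated libraries, with an adjusted p of 1.0 each by edgeR. The log2 fold change was -0.70 ± 0.444 (SE) at HLA-N and -0.41 ± 0.435 at TRIM26. It was 0.04 ± 0.232 at HLA-E, 0.07 ± 0.234 at HLA-W, 0.12 ± 0.167 at POU5F1 and 0.02 ± 0.173 at TAP2, and 0.25 ± 0.347 and 0.22 ± 0.510 at HLA-K and HLA-J. At HLA-N the dCas9 libraries lay below the untreated ones without overlap, with a log2 fold change of -0.95 ± 0.537 (SE) and an adjusted p of 1.0 by edgeR. A peak there was listed only in untreated replicates 1 and 3 and TALE replicate 2. The HLA-N region was thus in the table through groups other than dCas9, and the non-overlap is not independent of that.

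**Figure D5:**
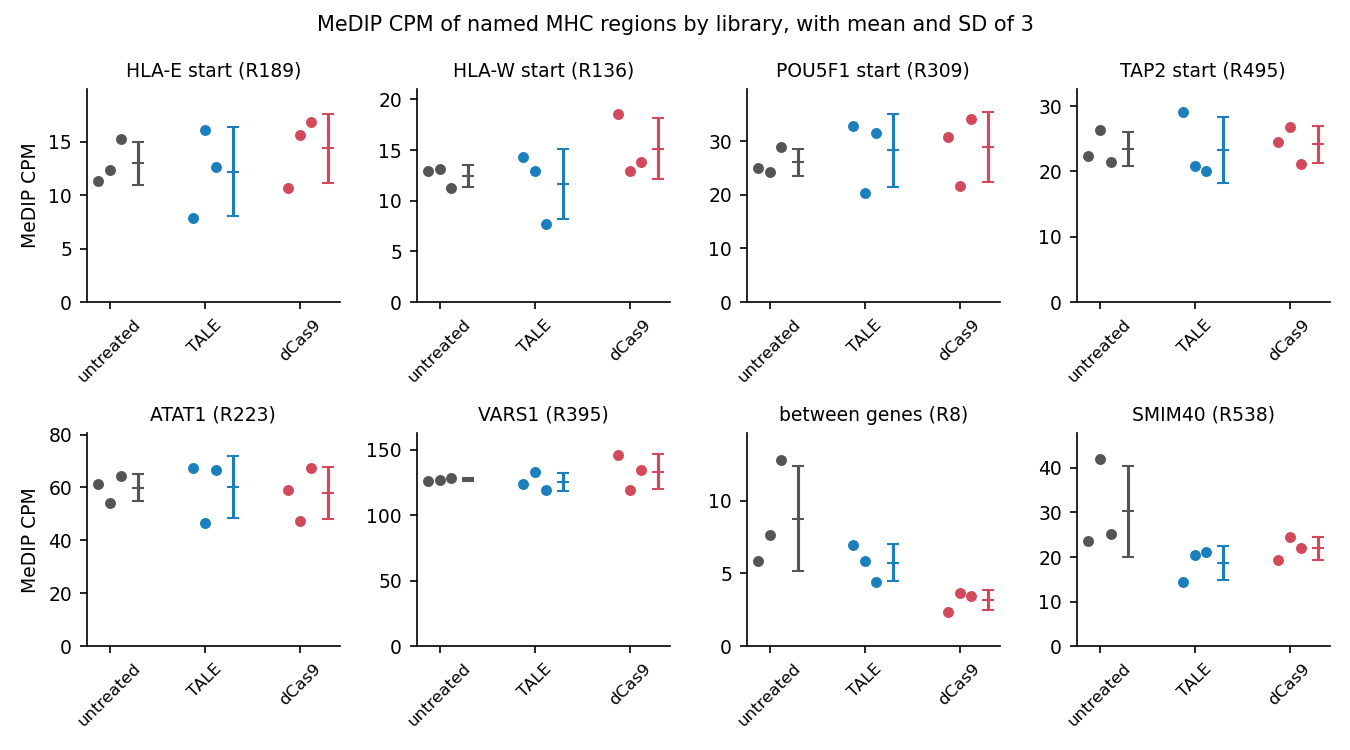
Points give the MeDIP CPM of 8 MHC regions in 3 untreated, 3 TALE and 3 dCas9 libraries, and the bars beside them the mean and SD of 3. The dCas9 libraries of R8 (2.37 to 3.64 CPM) and the TALE libraries of R538 (14.3 to 21.2 CPM) lie below the untreated ones, and in the other 6 panels the groups overlap.

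RNA was measured in the same 3 groups, from other libraries. Of 416 genes annotated in the window 328 matched a row of the RNA table and 107 passed the count filter. The quasi-likelihood test of edgeR with Benjamini-Hochberg adjustment over 13786 genes called 0 of the 107 in TALE libraries against untreated ones, where it called 0.0218% of all genes. It called 0 in dCas9 libraries against untreated ones (0.029%), 0 between TALE and dCas9 (0.0%) and 0 in all silenced libraries against untreated ones (0.0363%). At an unadjusted p under 0.05 there were 10 (9.35% against 7.15% of all genes), 5 (4.67% against 5.93%), 5 (4.67% against 6.38%) and 8 (7.48% against 6.35%) in that order. DESeq2 called 0, 1, 0 and 1 MHC genes, where it called 0.0653, 0.215, 0.0 and 0.261% of all genes with an adjusted p. At an unadjusted p under 0.05 by DESeq2 there were 9 (8.41% against 5.95% of all genes), 4 (3.74% against 4.85%), 6 (5.61% against 5.13%) and 6 (5.61% against 5.26%). The gene it called, HLA-C, named here after its values were seen, averaged 6.45 CPM in untreated, 3.97 in TALE and 2.77 in dCas9 libraries, and its log2 fold change in silenced libraries was -0.95 ± 0.211 (SE) with an adjusted p of 0.119 by edgeR. HLA-C had no region at its start and 1 in its body. PSMB8 and PSMB9, whose shared start region R497 was near the floor, had log2 fold changes of -0.91 ± 0.237 and -0.77 ± 0.242 (SE) in silenced libraries, with adjusted p of 0.269 and 0.453 by edgeR.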

How the data were processed

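MeDIP-seq and RNA-seq gave 9 libraries each. The authors deposited raw counts per region and per gene, whole numbers in both tables. Per the submitters' processing notes, BWA 0.7.5, Picard, MACS2, bedtools and STAR 2.3.0 were used on hg19, with no settings listed. Per the labels' protocols, MeDIP libraries were pooled before capture, which limits differences between libraries in that step. The region boundaries coincide with ends of deposited peaks, so sites without a peak in any library have no count. Captured counts rise with CpG content, width and DNA copy number, and copy number was not analysed here. The authors deposited 1 peak list per library, holding a score, a fold enrichment and −log10 p- and q-values per peak, of which only positions were used here. A region had a peak where at least 1 base overlapped.

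Whole tables were fitted with edgeR 4.0.16 in R 4.3.3: TMM factors, filterByExpr with a minimum of 10 counts, quasi-likelihood tests on group means of 9 libraries, and Benjamini-Hochberg adjustment at 0.05. This left 105652 regions and 13786 genes. The silenced value is the average of both treated groups. CPM are counts scaled by the TMM-adjusted library size of tested features, and RPKM divide them by merged exon length in kilobases. Exact tests used log2(CPM + 0.5). The fits were tested on simulated counts. Sequences, CpG and gene positions came from GRCh37, in which 25 of 69 sequence names of the table were found and 0 regions ran past an end. Older gene symbols were matched through RefSeq names.

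The members, gene lists and rules were chosen with earlier results of these data known. The rule named the 3 regions of highest untreated signal per part, the 3 of smallest p per comparison, the 3 widest, the 3 densest in CpG, and regions at starts of listed genes. Some results and sequences that these rules name are not reported here. The printed sequences, the repeated words, the Alu word, the 500 kb steps and the wide start window for all coding genes were added after values were seen.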

Additional observations from a re-analysis of the deposited data

How the results depend on the processing

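The number of MHC regions called stayed at 0 in all 4 comparisons under DESeq2's size factors in edgeR, upper-quartile factors, DESeq2, no filter on low counts, a filter of at least 10 counts in every library, and each library left out. For MHC genes, DESeq2 called 1 for dCas9 against untreated and 1 for silenced against untreated, and no filter on low counts called 1 in each of those and 1 for TALE against dCas9. With single libraries left out the count ranged from 0 to 1 for TALE against dCas9 (1 without dCas9 replicate 1) and from 0 to 1 for silenced against untreated (1 without TALE replicate 3). The gene was HLA-C against untreated, with an adjusted p between 0.0118 and 1.00 over the 15 alternatives for silenced libraries, and the ribosomal protein pseudogene RPL3P2 between TALE and dCas9. The cause was not tested.

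No numbered pairing was seen: correlations of deviations between same-numbered libraries ran from -0.00475 to 0.00399 (MeDIP) and from -0.284 to 0.103 (RNA). With the replicate number as a block, 0 MHC regions and 0 MHC genes were called in each comparison, and the log2 fold change of the region upstream of HLA-E between silenced and untreated became -0.00234.

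The share of counts in MHC regions in untreated, TALE and dCas9 libraries was 0.583, 0.587 and 0.584% over regions that pass the count filter, 0.530, 0.535 and 0.533% on assembled chromosomes only, and 0.474, 0.479 and 0.477% for members with a peak in at least 5 libraries, each by the change of what is summed. Peak overlap of at least 50% of a region changed no number of regions with a peak. Region boundaries coincide with ends of deposited peaks, so this check could hardly change a number. Listed genes with a region at the start went from 15 to 37, and MHC coding genes from 26 to 94, with 2000 bases on both sides.

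Over all 14 or 15 alternatives, the log2 fold change between silenced and untreated libraries changed sign at 5 of the 8 tested starts. It ranged over -0.00294 to 0.737 at HLA-K, -0.0151 to 0.207 at HLA-W, -0.101 to 1.05 at HLA-J, -0.0769 to 0.176 at HLA-E, -0.0653 to 0.106 at TAP2. It kept its sign at HLA-N (-0.863 to -0.396), TRIM26 (-0.634 to -0.137) and POU5F1 (0.0472 to 0.217), and no alternative called any of the 8. Class II regions had few counts, and 8 of 26 could be tested.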
